A study of Mus musculus with 4 samples.

Results

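The lactate shuttle and glucose uptake genes comprise 9 genes chosen by name: the monocarboxylate transporters Slc16a1, Slc16a3 and Slc16a7, their partner protein Bsg, the lactate dehydrogenases Ldha and Ldhb, and the glucose transporters Slc2a1, Slc2a3 and Slc2a8. They are 9 of the 55335 genes in the deposited count table, and all 9 were among the 24116 genes with enough counts to be tested. Poly(A) RNA was sequenced from mouse testes at postnatal day 14 in 2 Znhit1_KO and 2 CTRL libraries, which the labels describe as independent biological replicates. Znhit1_KO denotes knockout of Znhit1, a subunit of the SRCAP complex that exchanges histone H2A for H2A.Z, and CTRL denotes the control genotype. The sources used here do not give the allele, any Cre driver, the strain or any pooling of animals. The series text speaks of germ cells, whereas the labels name testis as the tissue, and the markers of somatic cells given further on were present in every library.

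In the seminiferous tubule, Sertoli cells take up glucose, break it down to pyruvate and reduce the pyruvate to lactate. Monocarboxylate transporters, which move lactate together with a proton, export it and pass it to spermatocytes and spermatids, which use lactate as a main fuel. Lactate dehydrogenase interconverts pyruvate and lactate. Its subunits are encoded by Ldha, Ldhb and, in germ cells, Ldhc. Facilitative glucose transporters set how much glucose enters a cell, and GLUT3, the product of Slc2a3, has a high affinity for glucose.

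Among the glucose transporters, the dehydrogenases and the lactate transporters, 1 gene each stood at a much lower level in Znhit1_KO testes. The glucose transporter Slc2a3, the lactate dehydrogenase Ldha and the lactate transporter Slc16a7 had mean levels of 22.5%, 40.8% and 30.4% of CTRL. Slc16a1 and Ldhb had means of 127% and 121% of CTRL without overlap between groups, and Slc2a1 (117%), Slc16a3, Bsg and Slc2a8 had overlapping groups. These levels are the authors' TPM (transcript abundance scaled to a fixed library total) values, which are scaled to transcript length and so allow different genes to be compared. The edgeR quasi-likelihood test with Benjamini-Hochberg adjustment called none of the 9 genes at an adjusted p under 0.05, and it called 0% of all genes tested. At an unadjusted edgeR p under 0.05, 3 of the 9 were lower and 0 were higher, beside 7.75% of all genes lower and 2.99% higher. The authors' deposited table marks the same 3 as down and none as up, beside 3.22% of its genes down and 0.277% up. That table was made from the same 4 libraries and is no independent check.

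**Figure D1:**
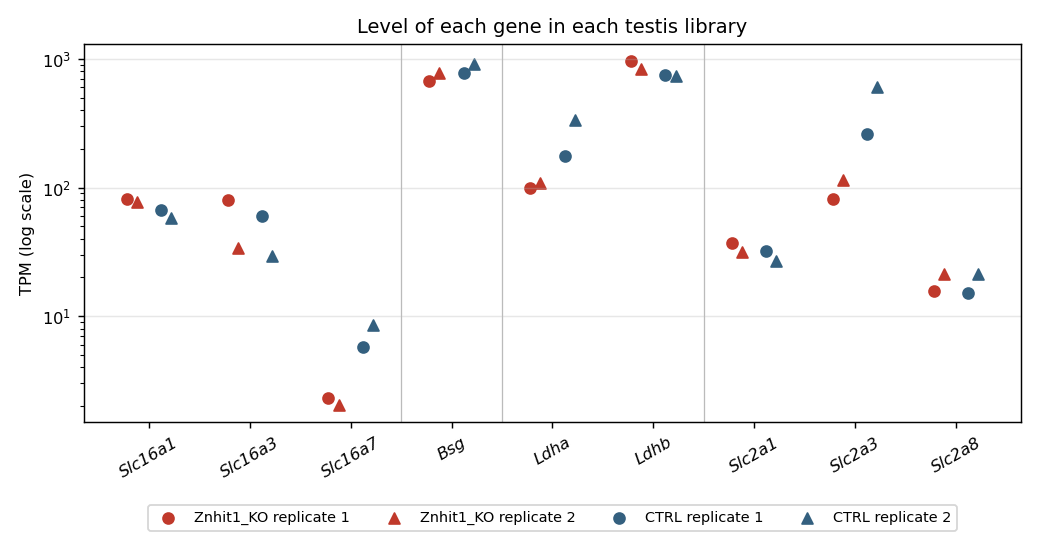
TPM of the 9 genes in each library, on a log axis, with circles for replicate 1 and triangles for replicate 2. Slc2a3, Ldha and Slc16a7 lie lower in the Znhit1_KO points, at 22.5%, 40.8% and 30.4% of the CTRL mean, while Slc16a3 differs more between replicate numbers than between genotypes.

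The estimated counts summed to 157790457 and 136732861 in Znhit1_KO libraries and to 129531714 and 136178177 in CTRL libraries. Znhit1 had 8.0 and 5.24 TPM in Znhit1_KO libraries, against 55.4 and 90.2 TPM in CTRL libraries. Its edgeR log2 change was -3.22 (SE 0.403, adjusted p = 0.264), and its exons overlap those of Plod3 on the other strand. Of the 10 pachytene spermatocyte markers, all had no overlap between groups and were lower in Znhit1_KO, beside 21.3% of all genes, with summed CPM (counts scaled to library size) of 877 and 1238 in Znhit1_KO libraries and 1590 and 3012 in CTRL libraries. The 14 Sertoli markers summed to 7952 and 6789 CPM in Znhit1_KO libraries and to 5661 and 5955 CPM in CTRL libraries, and 11 of them had no overlap and were higher in Znhit1_KO, beside 21.8% of all genes. No marker of either list was at 0 in any library. Of the 6 round spermatid markers, Tnp1, Prm1 and Prm2 were at 0 in at least 1 library, and the list summed to 3.89 and 3.84 CPM in Znhit1_KO libraries and to 4.27 and 5.13 CPM in CTRL libraries. Spermatogonial markers summed to 733 and 738 CPM in Znhit1_KO libraries and to 796 and 809 CPM in CTRL libraries. Early spermatocyte markers summed to 1174 and 1707 CPM in Znhit1_KO libraries and to 1608 and 2318 CPM in CTRL libraries. All 7 log2 changes were negative (median -0.30), and 2 genes were lower without overlap, beside 21.3% of all genes. The 8 Leydig markers summed to 66.0 and 106 CPM in Znhit1_KO libraries and to 45.6 and 67.0 CPM in CTRL libraries. Of them, 4 were higher without overlap, beside 21.8% of all genes. The authors' deposited table marks 2 of them, the steroidogenic genes Cyp17a1 and Cyp11a1, as up, beside 0.277% of its genes. The 8 macrophage markers summed to 59.5 and 86.9 CPM in Znhit1_KO libraries and to 52.2 and 62.7 CPM in CTRL libraries. Their median log2 change was 0.68, and 3 were higher without overlap, beside 21.8% of all genes. Peritubular myoid and endothelial markers had medians of -0.031 and 0.18.

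Glucose transporters are encoded by 3 of these genes, of which Slc2a3 had the highest TPM in every library. Slc2a3, encoding GLUT3 (ENSMUSG00000003153.10, chromosome 6, 122727809 to 122801640, minus strand, mm10), had 80.9 and 114 TPM in Znhit1_KO libraries, against 263 and 606 TPM in CTRL libraries. The groups did not overlap, but the CTRL libraries differed widely from each other. The means were 97.6 ± 23.6 TPM in Znhit1_KO and 435 ± 242 TPM in CTRL (SD, n = 2 each). A log2 change of -2.09 (SE 0.488) in edgeR had an unadjusted p of 0.00673 and an adjusted p of 0.303. The authors' deposited table gives -2.09 (SE 0.431) with an adjusted p of 0.000105. In whole testis, fewer cells of a type and less RNA per cell cannot be told apart. The libraries ranked by Slc2a3 CPM in the same order as by the summed pachytene markers. This order was CTRL replicate 2, CTRL replicate 1, Znhit1_KO replicate 2 and Znhit1_KO replicate 1. Its split by genotype follows from the lack of overlap, seen lower in Znhit1_KO for 21.3% of all genes. How many genes share the full order was not counted, and the part of pachytene spermatocytes in the result was not tested.

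Slc2a1 encodes GLUT1, a widely expressed glucose transporter (ENSMUSG00000028645.11, chromosome 4, 119108711 to 119137983, plus strand). It had 37.3 and 31.7 TPM in Znhit1_KO libraries, against 31.9 and 26.9 TPM in CTRL libraries, so the groups overlapped narrowly. By CPM they did not overlap, at 47.7 and 40.2 in Znhit1_KO libraries and 39.2 and 37.5 in CTRL libraries. Its edgeR log2 change was 0.20 (SE 0.170, adjusted p = 0.723). Slc2a8, encoding the largely intracellular transporter GLUT8 (ENSMUSG00000026791.14, chromosome 2, 32972990 to 32982083, minus strand), had 15.6 and 21.4 TPM in Znhit1_KO libraries, against 15.2 and 21.3 TPM in CTRL libraries. Replicate 2 was higher in both groups, and the difference between replicates was larger than that between genotypes. In edgeR the log2 change of Slc2a8 was -0.057 (SE 0.317, adjusted p = 0.967).

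Added together, Slc2a1, Slc2a3 and Slc2a8 gave 134 and 167 TPM in Znhit1_KO libraries and 310 and 654 TPM in CTRL libraries. Slc2a3 made up 60.5% and 68.2% of this sum in Znhit1_KO libraries, against 84.8% and 92.6% in CTRL libraries. The remainder, held by the genes for GLUT1 and GLUT8, was larger in both Znhit1_KO libraries. Slc2a1 made up 27.9% and 19.0% in Znhit1_KO libraries and 10.3% and 4.11% in CTRL libraries. Slc2a8 made up 11.6% and 12.8% in Znhit1_KO libraries and 4.90% and 3.26% in CTRL libraries. None of these 3 shares overlapped between groups, and the share of Slc2a3 was 24.4 percentage points lower in Znhit1_KO. As parts of a whole, the shares are not separate observations. The mean level of Slc2a8 itself was 18.5 TPM in Znhit1_KO and 18.2 TPM in CTRL. With 2 libraries a group an exact permutation test cannot give a p below 0.33, so no test was made of any share.

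Ldha and Ldhb encode subunits of the same enzyme. Ldha stood lower in Znhit1_KO and Ldhb higher, each without overlap between groups. Neither passed the edgeR threshold, with an adjusted p of 0.330 for Ldha and 0.655 for Ldhb. Their promoters are shown as those of the pair of dehydrogenase genes, as the 250 bases before the start site, with capitals marking the core ACGTG on either strand, including within the E-box CACGTG, and the cAMP response element TGACGTCA. The sequences are from RefSeq (GRCm38.p6), at chr7:46845554-46845803 on the plus strand for Ldha and chr6:142507958-142508207 on the minus strand for Ldhb.
Ldha: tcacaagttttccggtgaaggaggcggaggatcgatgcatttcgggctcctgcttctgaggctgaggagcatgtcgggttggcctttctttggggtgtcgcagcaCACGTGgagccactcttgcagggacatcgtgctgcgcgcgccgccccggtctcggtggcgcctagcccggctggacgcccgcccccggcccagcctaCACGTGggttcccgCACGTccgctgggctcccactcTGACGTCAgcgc
Ldhb: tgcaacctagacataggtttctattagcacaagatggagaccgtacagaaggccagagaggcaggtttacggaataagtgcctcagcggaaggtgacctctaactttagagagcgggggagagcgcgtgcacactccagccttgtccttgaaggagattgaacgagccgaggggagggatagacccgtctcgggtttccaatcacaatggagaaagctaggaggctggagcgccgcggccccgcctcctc
A window from 250 bases before to 50 bases after each start was searched on both strands. The Ldha window held CACGTG at 2 places, with first bases 145 and 48 bases before the start, and TGACGTCA at 1 place, 12 bases before it. ACGTG occurred at 5 places in that window, of which 4 lie within the pair of E-boxes. The windows of Ldhb, Slc2a8 and another Ldha start listed by RefSeq held none of these motifs. CACGTG and ACGTG were not particular to the lower gene. The Slc16a1 window held CACGTG at 1 place and ACGTG at 3 places. That of Slc16a3 held ACGTG at 2 places and that of Slc2a1 at 1 place. TGACGTCA, however, was found only in the window of the Ldha start shown. Among 32841 promoter windows, 7.15% held CACGTG, 19.6% held ACGTG and 1.79% held TGACGTCA. Of the 9 genes, 6 had a window in the RefSeq table, and no binding data were used here.

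Ldha encodes the subunit that favours the reduction of pyruvate to lactate (ENSMUSG00000063229.15, chromosome 7, 46841475 to 46855627, plus strand). It had 98.9 and 109 TPM in Znhit1_KO libraries, against 175 and 335 TPM in CTRL libraries. The groups did not overlap, and CTRL replicate 2 was far above the other 3 libraries. The means were 104 ± 7.47 TPM in Znhit1_KO and 255 ± 113 TPM in CTRL (SD, n = 2 each). By edgeR it differed by -1.44 on the log2 scale (SE 0.393; unadjusted p = 0.0131, adjusted p = 0.330), while the authors' deposited table gives -1.44 (SE 0.382) with an adjusted p of 0.00693. The libraries ranked by Ldha CPM as they did by Slc2a3 and by the pachytene markers, and here too the split by genotype follows from the lack of overlap. The 7 near-identical copies of Ldha held between 0.125% and 0.290% of the counts summed over Ldha and its copies.

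Ldhb encodes the subunit that favours the oxidation of lactate to pyruvate (ENSMUSG00000030246.11, chromosome 6, 142490249 to 142507957, minus strand). It had 961 and 837 TPM in Znhit1_KO libraries, against 754 and 736 TPM in CTRL libraries, again without overlap. The means were 899 ± 87.5 TPM in Znhit1_KO and 745 ± 12.5 TPM in CTRL (SD, n = 2 each). Its edgeR log2 change was 0.22 (SE 0.155, adjusted p = 0.655). A near-identical pseudogene of Ldhb held between 3.03% and 3.58% of their summed counts. The Sertoli, Leydig, macrophage, endothelial and red cell markers also summed higher in the Znhit1_KO means. Of these sums, only the Sertoli and endothelial ones did not overlap between groups. Endothelial markers summed to 86.9 and 91.4 CPM in Znhit1_KO libraries and to 73.2 and 79.0 CPM in CTRL libraries. The part of these cell types in the Ldhb result was not tested.

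Ldhc, the germ cell lactate dehydrogenase, lies 5575 bases from Ldha on chromosome 7. It had 109 and 233 TPM in Znhit1_KO libraries, against 353 and 829 TPM in CTRL libraries. For Ldhc the edgeR log2 change was -1.88 (SE 0.592, adjusted p = 0.377), and the authors' deposited table marks it as down with an adjusted p of 0.00587. Summed over Ldha, Ldhb and Ldhc, dehydrogenase transcripts came to 1168 and 1179 TPM in Znhit1_KO libraries and 1282 and 1901 TPM in CTRL libraries. Ldhb made up 82.2% and 71.0% of the sum in Znhit1_KO libraries, against 58.8% and 38.7% in CTRL libraries. Its share was thus larger in Znhit1_KO, without overlap, and those of Ldhc and Ldha were smaller. Ldhc made up 9.29% and 19.7% in Znhit1_KO libraries, against 27.5% and 43.6% in CTRL libraries. Ldha made up 8.46% and 9.28% in Znhit1_KO libraries, against 13.6% and 17.6% in CTRL libraries. The composition differed by 27.8 percentage points for Ldhb, -21.1 for Ldhc and -6.76 for Ldha, each as Znhit1_KO minus CTRL. These shares too are parts of a whole and not separate observations. Without CTRL replicate 2 the differences were 17.8 points for Ldhb and -13.0 for Ldhc.

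**Figure D2:**
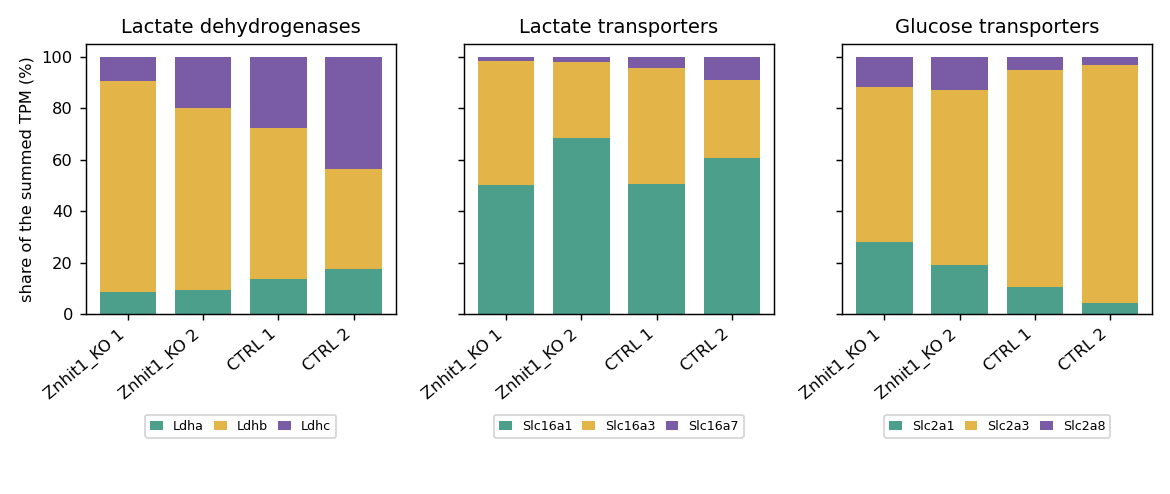
Share of summed TPM, in percent, taken by each lactate dehydrogenase, lactate transporter and glucose transporter gene in each library. Ldhb fills 82.2% and 71.0% of the Znhit1_KO dehydrogenase bars against 58.8% and 38.7% in CTRL, and Slc2a3 fills less of the Znhit1_KO glucose transporter bars.

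Among the lactate transporter genes, Slc16a1 and Slc16a3 made up most of the summed TPM, and the low-level Slc16a7 stood lower in Znhit1_KO. Slc16a7, encoding the high-affinity transporter MCT2 (ENSMUSG00000020102.15, chromosome 10, 125219270 to 125389465, minus strand), had 2.30 and 2.03 TPM in Znhit1_KO libraries, against 5.80 and 8.46 TPM in CTRL libraries. The groups did not overlap, with means of 2.16 ± 0.196 TPM in Znhit1_KO and 7.13 ± 1.89 TPM in CTRL (SD, n = 2 each). The edgeR log2 change was -1.46 (SE 0.274), with an unadjusted p of 0.00254 and an adjusted p of 0.264. In the authors' deposited table it is -1.47 (SE 0.302) with an adjusted p of 0.000105. An antisense gene, Gm47862, shares 179 exon bases with Slc16a7, and since the sources used here do not state whether sequencing kept the strand, reads there could not be assigned.

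Slc16a1 encodes MCT1, the most widespread lactate transporter (ENSMUSG00000032902.1, chromosome 3, 104638668 to 104658462, plus strand). It had 82.0 and 77.1 TPM in Znhit1_KO libraries, against 67.4 and 58.1 TPM in CTRL libraries, and the groups did not overlap. The edgeR log2 change was 0.30 (SE 0.136), with an unadjusted p of 0.0719 and an adjusted p of 0.509. Slc16a3 encodes MCT4, the transporter typical of lactate-exporting cells (ENSMUSG00000025161.16, chromosome 11, 120948480 to 120960868, plus strand). Its levels were 79.9 and 33.8 TPM in Znhit1_KO libraries, against 60.0 and 29.5 TPM in CTRL libraries. The first replicate was the higher one in each group, by more than the genotypes differed. Its log2 change in edgeR of 0.40 (SE 0.526) had an adjusted p of 0.828. It was -0.39 without Znhit1_KO replicate 1 and -0.060 without CTRL replicate 2.

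The red cell markers, whose 2 replicates also stood apart in each group, summed to 18.5 and 216 CPM in Znhit1_KO libraries and 14.7 and 96.8 CPM in CTRL libraries, none of the 5 being at 0. They were high where Slc16a3 was low, and their part in its values was not tested. As shares of lactate transporter TPM, Slc16a7 held 1.40% and 1.79% in Znhit1_KO libraries, against 4.35% and 8.81% in CTRL libraries. Slc16a1 held 59.1% ± 13.0 in Znhit1_KO and 55.5% ± 6.99 in CTRL (SD, n = 2 each). Slc16a3 held 48.6% and 29.9% in Znhit1_KO libraries and 45.1% and 30.7% in CTRL libraries. Of these, the Slc16a7 share alone did not overlap between groups, and its difference of -4.98 points was -2.75 without CTRL replicate 2.

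Bsg encodes basigin, the membrane protein that MCT1 and MCT4 need to reach the cell surface (ENSMUSG00000023175.15, chromosome 10, 79704491 to 79711969, plus strand). It had 680 and 778 TPM in Znhit1_KO libraries, against 777 and 913 TPM in CTRL libraries. The groups overlapped by a narrow margin, and the edgeR log2 change was -0.26 (SE 0.198, adjusted p = 0.681). Emb, encoding embigin, a partner protein of MCT2, had an edgeR log2 change of 0.047 (SE 0.215, adjusted p = 0.960).

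By mean TPM, the order in Znhit1_KO was Ldhb, Bsg, Ldha, Slc2a3, Slc16a1, Slc16a3, Slc2a1, Slc2a8 and Slc16a7. In CTRL it was Bsg, Ldhb, Slc2a3, Ldha, Slc16a1, Slc16a3, Slc2a1, Slc2a8 and Slc16a7. Within Znhit1_KO the values of neighbours overlapped for Ldha with Slc2a3 and for Slc16a1 with Slc16a3. Slc2a3 also overlapped with Slc16a1 there, and Slc16a3 with Slc2a1. In CTRL overlap was seen for Slc2a3 with Ldha, Slc16a1 with Slc16a3, and Slc16a3 with Slc2a1. The 5 lowest genes kept the same order in both groups.

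**Figure D3:**
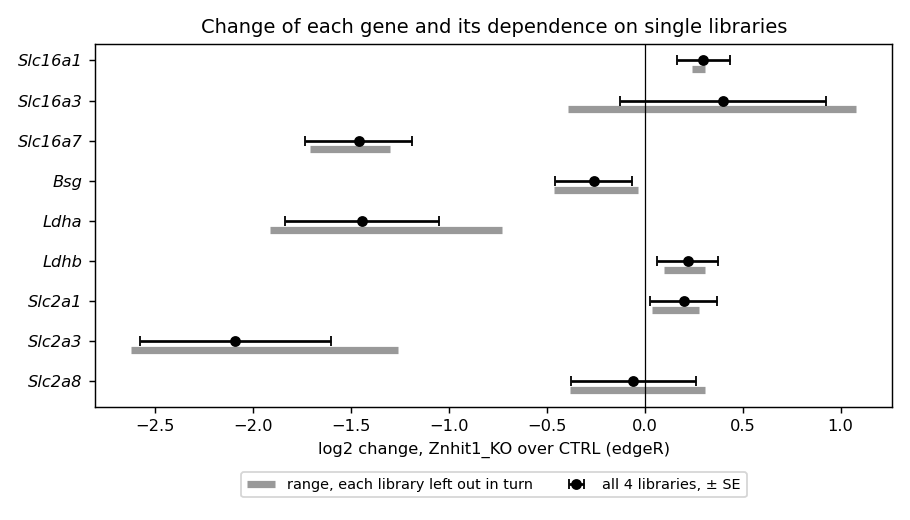
The edgeR log2 change of each gene, Znhit1_KO over CTRL, with its standard error (black) and the range obtained when each library was left out in turn (gray). Ranges for Slc2a3, Ldha and Slc16a7 stay below 0, and those for Slc16a1, Ldhb and Slc2a1 stay above it. All of these genes lacked overlap between groups in CPM, so leaving out a library could hardly change their sign. The range of Bsg, whose groups overlapped, also stays below 0. Ranges of Slc16a3 (-0.39 to 1.08) and Slc2a8 (-0.38 to 0.31) cross it.

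Single libraries decided some of the sizes. Without CTRL replicate 2, the highest library for Slc2a3 and Ldha, the log2 changes of these genes were -1.26 and -0.73. Without CTRL replicate 1, edgeR called Slc2a3 (log2 change -2.62, adjusted p = 0.00411) and Ldha (-1.91, adjusted p = 0.00510), beside 2.77% of all genes called lower in that fit, where the lone CTRL library was assumed to vary like the Znhit1_KO pair. Slc16a7 ranged between -1.71 and -1.30 over the 4 fits. Among the smaller values, Bsg was at -0.034 without CTRL replicate 2, and without Znhit1_KO replicate 1 Slc2a1 was at 0.036 and Ldhb at 0.10. DESeq2 with its own adjustment called Slc2a3, Ldha and Slc16a7, beside 3.61% of genes called lower and 0.399% called higher. Of the 9 genes, 3 had both Znhit1_KO libraries beneath both CTRL libraries in CPM, beside 21.3% of all genes, and 3 lay above, beside 21.8%.

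The 3 genes lower without overlap in CPM were set beside the pachytene markers. The 3 genes higher without overlap were set beside the Sertoli markers. All 10 pachytene markers were also lower without overlap, and 11 of the 14 Sertoli markers were also higher without overlap. A shared direction between genes and markers therefore follows from the choice of genes. On a log2 CPM scale centred on the 4 libraries, the mean of the pachytene markers was -1.40 and -0.65 in Znhit1_KO libraries and 0.47 and 1.58 in CTRL libraries. Slc2a3 stood at -1.30 and -0.67 in Znhit1_KO libraries and 0.31 and 1.66 in CTRL libraries, and Ldha at -0.76 and -0.56 in Znhit1_KO libraries and 0.070 and 1.25 in CTRL libraries. Slc16a7 differed in the order of its Znhit1_KO libraries, at -0.53 and -0.94, against 0.60 and 0.87 in CTRL libraries. The Sertoli marker mean was 0.38 and 0.037 in Znhit1_KO libraries and -0.16 and -0.25 in CTRL libraries. In Znhit1_KO libraries Slc16a1 stood at 0.19 and 0.11, Ldhb at 0.20 and 0.020, and Slc2a1 at 0.22 and -0.028. All 3 were below 0 in both CTRL libraries. The part of cell composition in these values was not tested.

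**Figure D4:**
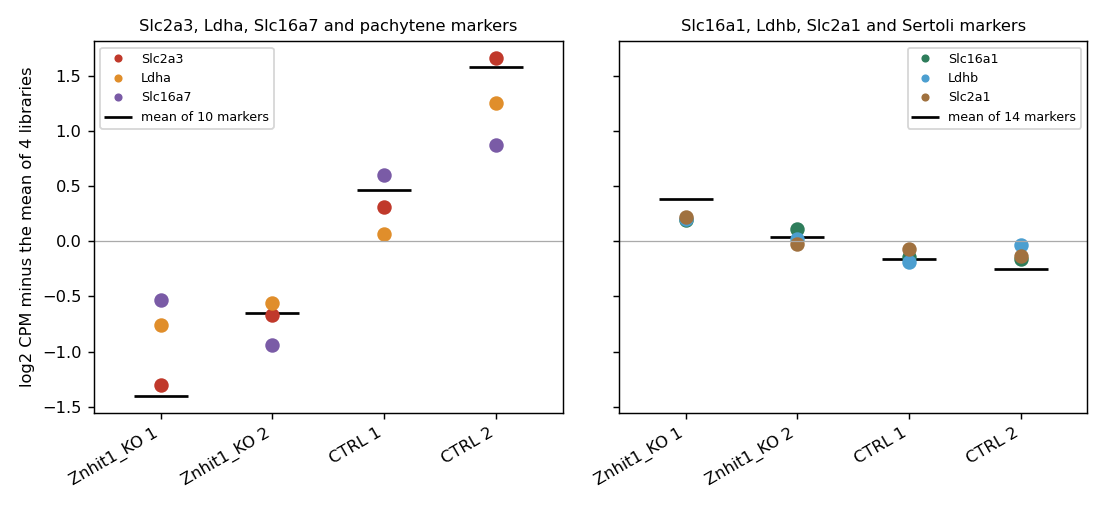
Log2 CPM minus the mean of the 4 libraries for the 3 lower genes beside the mean of 10 pachytene spermatocyte markers, and for Slc16a1, Ldhb and Slc2a1 beside the mean of 14 Sertoli markers. Slc2a3 lies at -1.30 and -0.67 in Znhit1_KO and at 0.31 and 1.66 in CTRL, near the pachytene mean in each library. How many other genes lie as near to that mean was not counted. The genes were chosen for lack of overlap in CPM, so a direction shared with the markers follows from that choice.

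Scaling to the summed Sertoli markers instead of TMM moved the median log2 change of all genes by -0.34. The marker Clu alone held 4987 and 4325 of the summed 7952 and 6789 CPM in Znhit1_KO libraries. In CTRL libraries it held 3582 and 3937 of 5661 and 5955 CPM, so this scaling rests mostly on Clu. On that scale Slc16a1, Ldhb and Slc2a1 had log2 changes of -0.034, -0.12 and -0.15. Relative to the median of all genes these are 0.27, 0.19 and 0.16, whereas Slc2a3, Ldha and Slc16a7 were at -2.08, -1.44 and -1.50. Taking off this median undoes the shift, so these values are no separate check. This scaling shifts all genes alike, so the signs of differences smaller than the shift are set by it.

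Among the other genes of the pathway, 72 of 74 table entries were tested, and edgeR called none of them at an adjusted p under 0.05. At an unadjusted p under 0.05, 6 were lower (8.33%, near the 7.75% of all genes tested) and 0 higher. The median log2 change was 0.080, beside 0.031 over all genes tested and -0.057 over the 9. The authors' deposited table marks the same 6 as down, beside 3.22% of its genes: Slc2a5, Ldhc, Pgk2, Pgam2, Aldoart2 and Dlat. Of the 8 germ cell isoforms tested, 4 are marked and 7 had negative values, with a median of -1.90. Aldoart1 was at 0 counts in all 4 libraries and could not be tested.

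The marked germ cell isoforms include the phosphoglycerate kinase Pgk2, with 0.541 and 1.14 TPM in Znhit1_KO libraries and 2.36 and 6.34 TPM in CTRL libraries. The phosphoglycerate mutase Pgam2, listed with them, had 11.4 and 22.1 TPM in Znhit1_KO libraries and 49.5 and 130 TPM in CTRL libraries. Both genes had groups that did not overlap. In CPM, 5 of the 8 isoforms tested were lower in Znhit1_KO without overlap, beside 21.3% of all genes. Aldoart2, a testis aldolase, was at 0.0692 and 0.0783 TPM in Znhit1_KO libraries and 0.957 and 1.30 TPM in CTRL libraries, at only 8 estimated counts in each Znhit1_KO library. The edgeR log2 changes of these 3 were -2.45 (SE 0.697), -2.51 (SE 0.617) and -3.82 (SE 0.590). Ldhal6b (-1.91, SE 0.770), Pdha2, the testis pyruvate dehydrogenase subunit (-0.50, SE 0.355), Eno4 (-0.43, SE 0.236) and Gapdhs (0.17, SE 0.570) are not marked.

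Slc2a5, a fructose transporter, was the only marked gene of 10 other sugar transporters. It had 3.91 and 6.83 TPM in Znhit1_KO libraries and 16.3 and 34.2 TPM in CTRL libraries, with an edgeR log2 change of -2.34 (SE 0.513, adjusted p = 0.282). Slc2a6 (0.55, SE 0.396) and Slc2a12 (0.11, SE 0.280) are not marked. Among 14 other monocarboxylate carriers and partner proteins none is marked; their median log2 change was 0.056, and the values were -0.77 (SE 0.326) for Slc16a6, 0.75 (SE 0.355) for Slc16a14 and 0.19 (SE 0.146) for the partner protein gene Nptn.

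The 16 entries for somatic glycolytic enzymes had a median of 0.22, 12 of them positive and none marked. Aldoa, the main aldolase, had 789 and 612 TPM in Znhit1_KO libraries and 563 and 482 TPM in CTRL libraries. Another Aldoa entry, at a lower level, had overlapping groups and a log2 change of -0.71 (SE 0.450). It had 8.51 and 12.9 TPM in Znhit1_KO libraries and 11.9 and 21.6 TPM in CTRL libraries. Pgam1 and the pyruvate kinase Pkm had log2 changes of 0.39 (SE 0.176) and 0.21 (SE 0.156). The higher-level Aldoa entry, Pgam1 and Pkm were higher in Znhit1_KO without overlap between groups. In CPM this held for 6 of the 16 entries, beside 21.8% of all genes. Of 13 genes of mitochondrial pyruvate use, Dlat, the acetyltransferase of the pyruvate dehydrogenase complex, had 28.2 and 39.3 TPM in Znhit1_KO libraries and 57.5 and 97.8 TPM in CTRL libraries. Its edgeR log2 change was -1.29 (SE 0.367, adjusted p = 0.340), and that of Pdhb, another subunit of the complex, was -0.49 (SE 0.249). The 11 regulators had a median of 0.13. The arrestins Txnip and Arrdc4, which limit glucose uptake, were at 0.13 (SE 0.264) and 0.34 (SE 0.160), and the phosphofructokinase-2 gene Pfkfb4 was at -0.94 (SE 0.377).

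**Figure D5:**
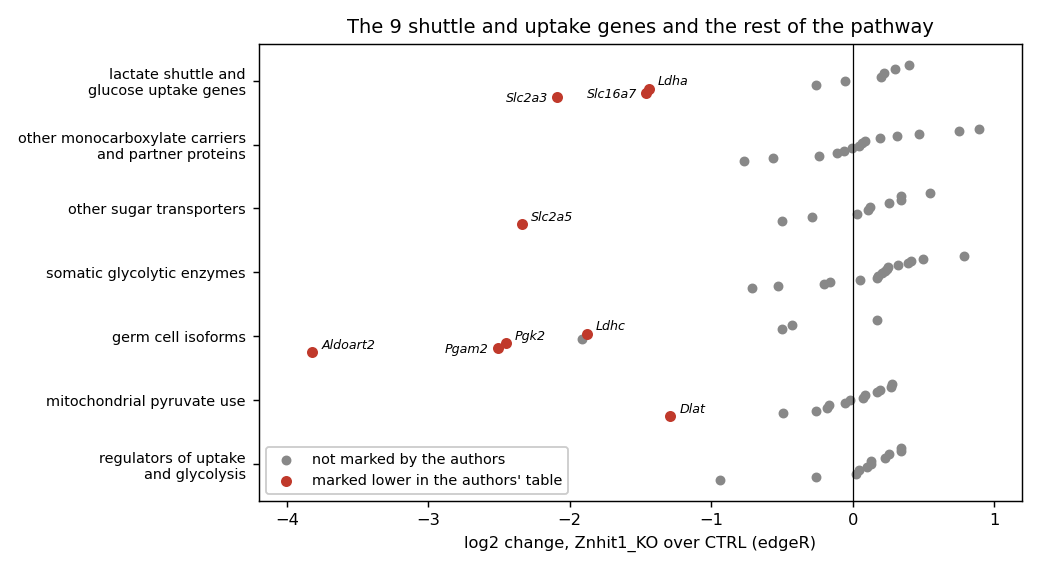
The edgeR log2 change, Znhit1_KO over CTRL, of every tested gene of the lactate shuttle, glucose uptake and surrounding pathway lists, red where the authors' deposited table marks the gene as down. Besides Slc2a3, Ldha and Slc16a7, the marked genes are Slc2a5, Dlat and 4 germ cell isoforms, with a median of -1.90 for the isoforms and 0.22 for the somatic enzymes.

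Likeness was measured as the Euclidean distance between centred log2 CPM patterns over the 4 libraries, among 80 candidate genes of the pathway. Nearest to Slc2a3 was Slc2a5 (distance 0.323), and nearest to Ldha was Dlat (0.285). Slc16a7 had no close match, its nearest being Ldha at 0.792. Slc16a1 was nearest to Arrdc4 (0.0842), Ldhb to Eno1 (0.0607) and Slc2a1 to Pfkfb1 (0.108). Bsg was nearest to Slc16a9 (0.0431), Slc16a3 to Slc16a4 (0.173) and Slc2a8 to Slc2a4 (0.117). Many other genes were as near: 60 of 24115 for Slc2a3, 50 for Ldha, 733 for Slc16a7, 155 for Slc16a1, 25 for Ldhb, 306 for Slc2a1, 19 for Bsg, 39 for Slc16a3 and 86 for Slc2a8.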

How the data were processed

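The authors' deposited gene table holds estimated counts, and their deposited comparison table holds TPM, base mean signal, log2 fold changes, Wald scores and p-values. Per the submitters' processing notes, cutadapt 2.5, HISAT2 2.2.1, StringTie 2.2.1, DESeq2 1.38.3 and build mm10 were used; their settings were not stated in the sources used here. The whole-number counts exceed the reads stated in the labels, so counting precision computed from them would be overstated and no counting interval is given. Counts were tested with edgeR 4.0.16 (R 4.3.3; quasi-likelihood F-test, TMM, filterByExpr, genotype as the only term) over 24116 genes, with Benjamini-Hochberg adjustment at 0.05; centred log2 CPM used a prior count of 2. DESeq2 1.42.0, limma 3.58.1, other scalings, no filter, a replicate block and leaving out each library were alternatives. Fits were tested on simulated data. TPM was used for levels and shares. Positions are from GENCODE M21; copies are genes matching at 95% identity or more over at least 50% of their length. The genes, the pathway and marker lists and the rule for further genes named (highest CPM, lowest p or nearest pattern in a list) were chosen with earlier results of these data known. Emb, Cyp17a1, Cyp11a1, Tnp1, Prm1 and Prm2 were named after their values were seen.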

Additional observations from a re-analysis of the deposited data

How the results depend on the processing

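The edgeR count of 0 of the 9 genes and 0 of the pathway genes called was also obtained with RLE size factors, total count scaling, Sertoli list scaling, no filter on low counts, limma-voom, limma on log2(TPM + 1) or log2(TPM + 0.1), and near-identical copies added, a choice made after seeing the data. DESeq2 called 3 of the 9 and 6 pathway genes. With the replicate number as a replicate block, edgeR called 4 of the 9 (Slc2a3, Ldha, Slc16a7 and Slc16a3, the last at a log2 change of 0.38 with adjusted p = 0.0479) and 12 pathway genes, among 2737 of all genes. Replicate differences in the 2 groups correlated at 0.421 over 24116 genes, but the labels do not say that a number marks a shared animal, litter or day. Leaving out each library gave 0 to 2 of the 9 and 0 to 7 pathway genes. Of 126 alternative log2 changes of the 9 genes, 9 had the opposite sign. For 3 of them, Slc16a1 (-0.034), Ldhb (-0.12) and Slc2a1 (-0.15) with Sertoli list scaling, it came from that scaling's common shift of all genes by -0.34. Relative to the median of all genes they were positive, but taking off that median undoes the shift, so this is no separate check. The others were, with limma on TPM, Slc2a8 (0.021 and 0.022); and with a library left out, Slc2a8 (-0.38 to 0.31) and Slc16a3 (-0.39 to 1.08). With a library left out, the share difference ranged over -5.57 to 12.8 points for Slc16a1 and -7.97 to 10.7 for Slc16a3. The Slc2a8 share difference was 5.52 points by CPM, which lacks length scaling, beside 8.14 by TPM. The cause of the other changes was not tested. With 2 libraries a group and a common biological coefficient of variation of 34.9%, a p that misses the threshold does not show that levels were alike.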

Other observations

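The glycolytic gene Gapdh, often used as a reference transcript, had 80.9 and 40.1 TPM in Znhit1_KO libraries and 13.7 and 48.1 TPM in CTRL libraries. Its 93 near-identical copies held 93.9% and 96.8% of the counts summed over Gapdh and its copies in Znhit1_KO libraries, and 98.1% and 95.2% in CTRL libraries. The division of these counts between the gene and its copies is uncertain. Slc16a4, an orphan monocarboxylate carrier, had the replicate pattern of Slc16a3, with 16.9 and 6.98 TPM in Znhit1_KO libraries and 14.5 and 4.67 TPM in CTRL libraries. The insulin-responsive glucose transporter Slc2a4 had that of Slc2a8, with 3.50 and 5.04 TPM in Znhit1_KO libraries and 3.33 and 5.25 TPM in CTRL libraries. Both were named after their values were seen.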
